A study of Arabidopsis thaliana with 12 samples.

Results

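The comparison set gp1-2 seedlings against wild-type seedlings, both grown with volatiles of the bacterium GB03, across all genes of the deposited count table. Its members were the 6 libraries labelled treated, 3 of each genotype, of 12 libraries in all. Of 33602 genes in the table, 20736 had enough reads to be tested. Wild type was the Arabidopsis thaliana accession Col-0, and gp1-2 was the T-DNA insertion line SAIL_209_D07 in that background, so the genotype is represented by 1 insertion line. Whole seedlings were grown at 22 °C in a cycle of 16 h light and 8 h dark on diluted Murashige and Skoog medium with 1% sucrose. At 5 days they were moved to a compartmented plate, exposed to GB03 for 2 days and harvested at 7 days. The untreated seedlings of both genotypes went through the same steps without GB03 and served here to ask whether a genotype difference depended on the volatiles. All 12 libraries entered the same fit, so the untreated ones also share in its estimate of the spread. The series describes the replicates as biological, and the labels say nothing further about separate plates or sowings.

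GB03 is a Bacillus strain whose volatiles are known to promote growth of Arabidopsis, to raise its photosynthetic capacity and to activate root iron uptake. The series concerns a stearoyl-ACP desaturase, the plastid enzyme that puts the first double bond into a fatty acid. In Arabidopsis, loss of the desaturase SSI2 is known to lower oleic acid and to switch on salicylic acid defence. On the route to salicylic acid, isochorismate synthase makes isochorismate from chorismate in the plastid, and isochorismate is exported to the cytosol. Salicylic acid is sensed by the NPR receptors, which control pathogenesis-related (PR) genes. The lipase-like proteins EDS1 and PAD4 and the receptors of pathogen effectors act upstream and amplify this loop.

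Total counts ran from 15196962 to 15839067 in wild type with volatiles and from 19583445 to 25214934 in gp1-2 with volatiles. Every gp1-2 library was thus deeper than every wild-type library, and depth and genotype cannot be told apart from the libraries alone. After every library had been thinned to the total of the smallest in the series, 11158051 counts, 8858 genes were called. Replicate 3 stood farthest from the other replicates in every group, and without it in any group 9414 genes were called. Values below are normalised read counts scaled to library size (CPM), given for replicates 1, 2 and 3 in that order, and log2 fold changes are gp1-2 minus wild type ± SE. In RefSeq, 21 of the 119 genes chosen for description share bases with another gene tested, and their counts are uncertain because the strand setting is not given in the sources used here. Where the genotypes are said not to overlap, this describes the genes named. The share of all genes without overlap is not given here, so lack of overlap does not mark a gene as unusual. In RNA of whole seedlings, fewer cells of a type and less RNA per cell cannot be told apart.

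At an adjusted p under 0.05 (edgeR quasi-likelihood test, Benjamini-Hochberg over all genes tested), 9525 genes, or 45.9%, were called. The calls were evenly divided, with 4688 genes higher in gp1-2 (22.6%) and 4837 lower (23.3%). Counts of genes called in each group below are to be read against these shares. A fit of the 6 libraries with volatiles alone called 9124 genes, 5004 higher and 4120 lower. Their sizes were not evenly divided. Of genes called with a log2 difference of at least 1, 1972 were higher and 815 lower, and at a difference of at least 3 the numbers were 586 and 18. The median log2 fold change of all genes tested was -0.04. With upper-quartile scaling that median was -0.13 and the calls were 4064 higher and 6033 lower, so the direction of small differences depended on the scaling.

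**Figure D1:**
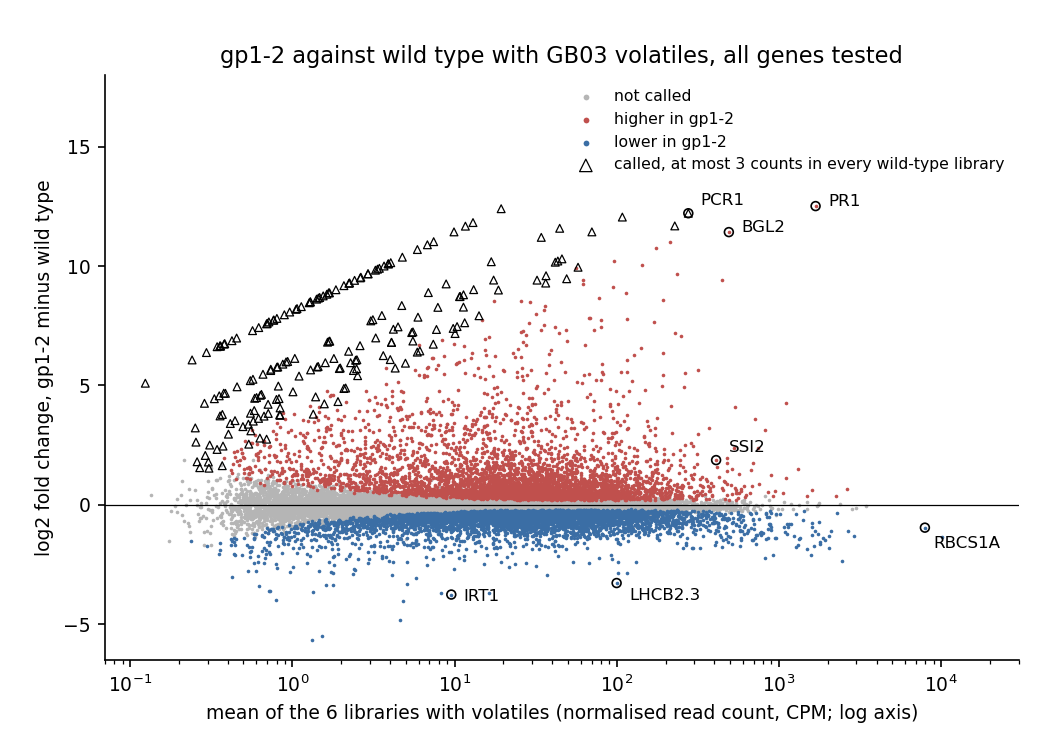
Log2 fold change of gp1-2 against wild type with GB03 volatiles (y axis) against the mean normalised read count of the 6 libraries (x axis, CPM, log axis) for each of the 20736 genes tested; red and blue points were called higher and lower, grey points were not called, and open triangles are called genes with at most 3 counts in every wild-type library, whose fitted values are not bounds. The points above a log2 fold change of 3 far outnumber those below -3.

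The transcript of SSI2 (AT2G43710), the main stearoyl-ACP desaturase of leaves, was examined to check the labels, which give no locus for the insertion. It was at 181, 167 and 180 CPM in wild type and at 682, 698 and 551 CPM in gp1-2. All libraries labelled gp1-2 were therefore higher, the transcript was not lost, and gene counts do not show whether it was intact. The log2 fold change was 1.87 ± 0.11 (edgeR adjusted p 1.6e-09). Every statement on gp1-2 below refers to the libraries so labelled.

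Genes of salicylic acid synthesis were higher in gp1-2 at each step from isochorismate to the amino acid conjugate. Of 10 genes tested, 6 rose and 1 fell, against 22.6% and 23.3% of all genes, and the median log2 fold change was 1.83. EDS16 (AT1G74710, isochorismate synthase 1) was at 9.95, 10.4 and 8.60 CPM in wild type and at 179, 186 and 150 CPM in gp1-2. EDS5 (AT4G39030), which exports isochorismate from the plastid, was at 11, 13.0 and 13.0 CPM against 112, 126 and 112 CPM. PBS3 (AT5G13320), which joins isochorismate to glutamate, was at 0.467, 0.855 and 0.905 CPM against 181, 162 and 135 CPM. For all 3 genes the lowest gp1-2 library lay far above the highest wild-type library. Their log2 fold changes were 4.15 ± 0.11 for EDS16, 3.24 ± 0.12 for EDS5 and 7.73 ± 0.19 for PBS3 (edgeR adjusted p 2.3e-13, 3.9e-12 and 1.1e-13).

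The other members did not all move the same way. The transcription factors CBP60G (AT5G26920) and SARD1 (AT1G73805), which activate EDS16 in Arabidopsis, rose by 5.24 ± 0.33 and 5.56 ± 0.21 on the log2 scale (edgeR adjusted p 3.8e-09 and 6.1e-12). SARD1 was at 4.27, 6.58 and 3.62 CPM in wild type and 248, 232 and 205 CPM in gp1-2. ICS2 (AT1G18870), the isochorismate synthase of lower activity, went the other way, from 8.08, 8.36 and 11.7 CPM to 4.26, 6.29 and 5.40 CPM. Its groups did not overlap, and its log2 fold change was -0.82 ± 0.18 (edgeR adjusted p 0.0017). The phenylalanine ammonia-lyase genes PAL1 and PAL2 were not called, with log2 fold changes of 0.03 ± 0.09 and 0.01 ± 0.10.

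Perception and removal of salicylic acid were higher too, with 10 of 14 genes tested up and none down (median 0.98), while 1 was called lower without wild-type replicate 1 or under upper-quartile scaling. The receptor genes NPR1, NPR3 and NPR4 all rose, by 1.40 ± 0.11, 1.91 ± 0.13 and 1.19 ± 0.11. DMR6 (AT5G24530) and AT4G10500, oxygenases that hydroxylate salicylic acid, stood at 11.6, 11.8 and 10.9 CPM and at 1.2, 1.65 and 1.81 CPM in wild type. In gp1-2 DMR6 was at 174, 171 and 185 CPM and AT4G10500 at 77.0, 66.3 and 72.6 CPM. Genes for both the making and the removal of the hormone were thus higher in the same libraries. The 4 genes tested of the N-hydroxypipecolic acid pathway, the signal of systemic resistance, all rose (median 5.23). ALD1 (AT2G13810), which starts that pathway from lysine, was at 0.134, 0.329 and 0.388 CPM in wild type and 59.1, 58.5 and 55.5 CPM in gp1-2. FMO1 (AT1G19250), which makes the active compound, went from 0.467, 1.32 and 0.905 CPM to 183, 158 and 133 CPM. UGT76B1 (AT3G11340), which glucosylates it, differed far less, at 0.73 ± 0.10 (edgeR adjusted p 2.7e-05).

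All 10 genes tested of the EDS1 node and its helper receptors rose, with a median of 1.65 and a range from 0.99 to 4.22. PAD4 (AT3G52430) was at 10.4, 11.7 and 8.86 CPM in wild type and 201, 208 and 169 CPM in gp1-2. EDS1 (AT3G48090) was at 29.9, 31.5 and 29.4 CPM against 170, 172 and 183 CPM. No library of one genotype reached the other for either gene. The helper receptor ADR1 (AT1G33560) rose by 1.21 ± 0.09 and SAG101 (AT5G14930), the other partner of EDS1, by 2.45 ± 0.10 (edgeR adjusted p 2.3e-08 and 2.4e-11).

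At the output, all 6 PR genes tested rose, with a median of 7.23. BGL2 (AT3G57260), the beta-glucanase also known as PR2, was at 0.401, 0.197 and 0.453 CPM in wild type and 1024, 941 and 982 CPM in gp1-2. PR1 (AT2G14610), the usual marker of salicylic acid signalling, was at 0.667, 0.329 and 0.711 CPM against 3727, 3177 and 3189 CPM (12.51 ± 0.21, edgeR adjusted p 7.1e-15). PR5 (AT1G75040), a thaumatin-like protein, was at 2.80, 4.08 and 2.33 CPM against 454, 404 and 505 CPM. The 2 genes whose proteins are usually counted as jasmonate or ethylene outputs, the chitinase HCHIB (PR3) and PR4, rose by 0.82 and 1.55 on the log2 scale, the smallest differences of the 6.

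**Figure D2:**
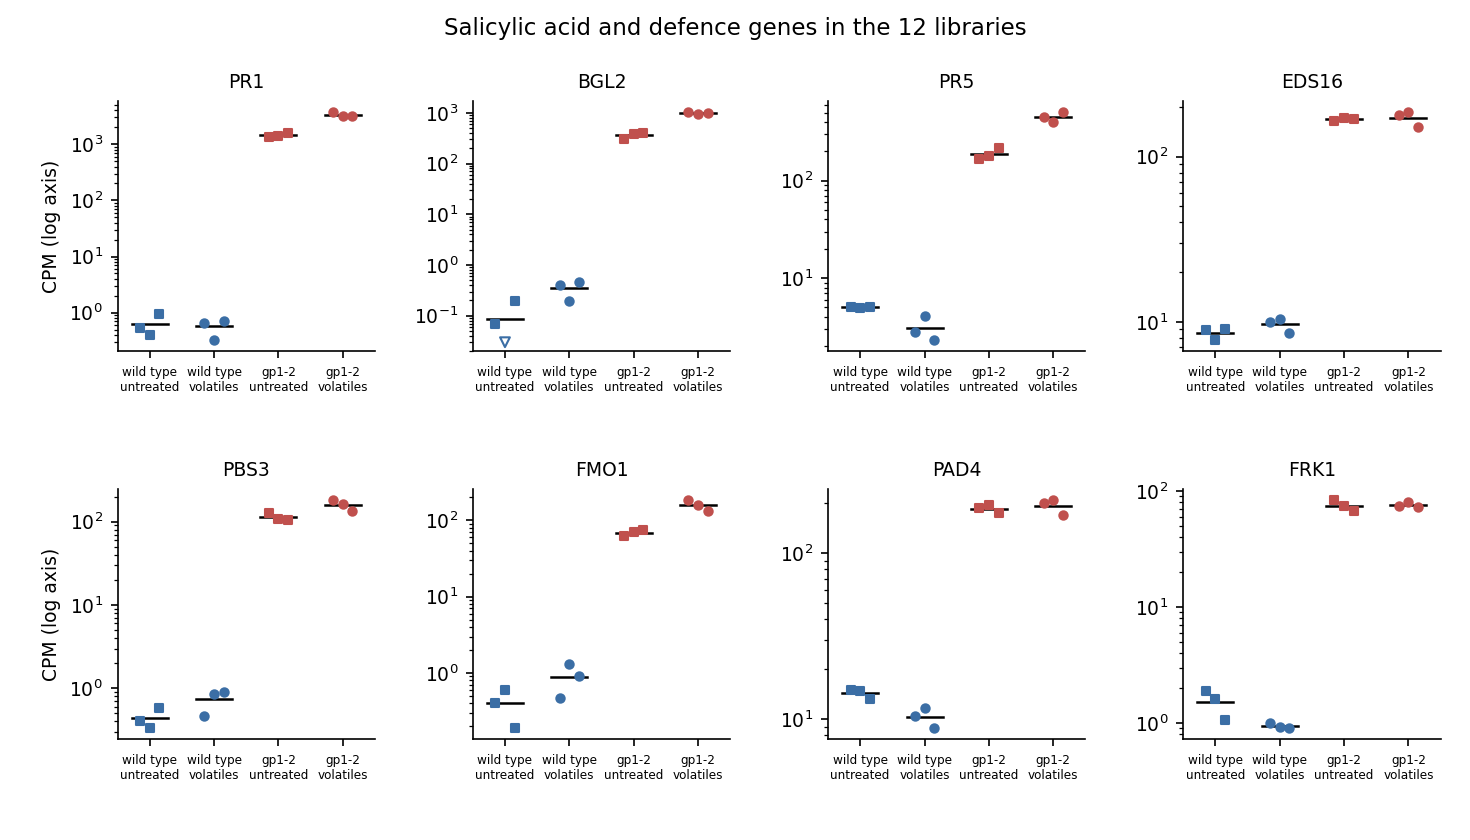
Normalised read count (CPM, log axis) of 8 salicylic acid and defence genes in each of the 12 libraries, by genotype and treatment; squares are untreated and circles volatile-treated libraries, horizontal bars are group means of 3, and an open triangle marks a library at 0. In every panel all gp1-2 libraries lie above all wild-type libraries, with and without volatiles.

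The surface receptors that detect microbial patterns did not all move alike. Of 16 genes tested, 15 were higher and none lower (median 1.27), yet FLS2 (AT5G46330), the flagellin receptor, was not called. It was at 27.7, 26.5 and 20.7 CPM in wild type and 26.9, 32.3 and 29.1 CPM in gp1-2, and the groups overlapped. Its co-receptor BAK1 (AT4G33430) rose by 0.51 ± 0.10 (edgeR adjusted p 0.00039). FRK1 (AT2G19190), a kinase gene induced by flagellin, was at 1.00, 0.921 and 0.905 CPM in wild type and 74.8, 80.2 and 72.4 CPM in gp1-2. RLP23 (AT2G32680), the receptor for a peptide of microbial necrosis-inducing proteins, was at 0.601, 0.461 and 0.388 CPM against 205, 250 and 231 CPM. For both genes the groups lay far apart, with log2 fold changes of 6.32 ± 0.16 and 8.87 ± 0.24 (edgeR adjusted p 1.0e-13 and 1.8e-13).

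Promoters are shown for 3 of these genes, to set side by side where they hold letters recognised by the transcription factors of this response. No rule chose the 3, and they do not stand for the other genes described. Of all promoters searched, 6.17% held at least 2 of the W-boxes and 3.51% at least 2 of the as-1 cores defined next. The W-box, bound by WRKY factors, was searched as TTGACC or TTGACT, and the core of the as-1 element, bound by TGA factors, as TGACG, each on both strands. The 2 searches can share letters, as TTGAC on one strand and TGACG on the other may overlap. Each sequence is the 250 bases before the RefSeq gene start (TAIR10.1), on the strand of the gene, with matches in capitals. FRK1 lies at chr2:8329945-8330194 (minus strand) and EDS5 at chr4:18185187-18185436 (plus strand), and each holds 2 W-boxes. SARD1, at chr1:27749249-27749498 (minus strand), holds 3 as-1 cores, of which 2 overlap on opposite strands, and no W-box.
FRK1: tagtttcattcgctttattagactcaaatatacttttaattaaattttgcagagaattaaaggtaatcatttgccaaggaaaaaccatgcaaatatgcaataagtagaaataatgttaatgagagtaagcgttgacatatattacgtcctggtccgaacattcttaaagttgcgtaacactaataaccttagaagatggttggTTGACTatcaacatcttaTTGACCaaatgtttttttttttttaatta
EDS5: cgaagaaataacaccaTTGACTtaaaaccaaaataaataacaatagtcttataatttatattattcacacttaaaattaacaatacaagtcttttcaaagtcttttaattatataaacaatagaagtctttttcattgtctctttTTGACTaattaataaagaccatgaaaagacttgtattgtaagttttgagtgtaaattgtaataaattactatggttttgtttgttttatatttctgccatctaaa
SARD1: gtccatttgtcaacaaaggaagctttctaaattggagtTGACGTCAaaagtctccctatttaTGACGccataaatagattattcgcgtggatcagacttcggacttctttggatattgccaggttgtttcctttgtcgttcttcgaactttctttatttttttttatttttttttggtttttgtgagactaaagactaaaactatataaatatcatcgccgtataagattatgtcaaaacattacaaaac

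Over the promoters of all genes tested that have a RefSeq start, 28.7% of 20421 held a W-box. The share was 37.4% of the 4649 promoters of genes called higher, 22.6% of the 4777 of genes called lower and 27.7% of those not called. Among the 575 promoters of genes called higher with a log2 fold change of at least 3 it was 46.6%, and 19.7% of those held at least 2 W-boxes, against 6.17% of all. The as-1 core was in 19.4% of all promoters, 21.8% of those of genes called higher and 18% of those of genes called lower. These shares describe letters in the sequence and carry no test.

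Among the WRKY factors themselves, 37 of 62 genes tested were higher and none lower (median 1.00). In some alternatives 1 or 2 WRKY genes were called lower, 1 of them without volatile-treated wild-type replicate 1. WRKY41 (AT4G11070) was at 0 in all 3 wild-type libraries and at 7.23, 5.05 and 3.47 CPM in gp1-2, at least 26.2-fold higher, taking 3 counts per wild-type library as the floor. WRKY70 (AT3G56400) and WRKY33 (AT2G38470), chosen here after their values were seen because they are known for salicylic acid signalling and camalexin synthesis, rose by 5.18 ± 0.28 and 3.29 ± 0.27.

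Of 39 cysteine-rich receptor-like kinases (CRK) tested, 31 rose and 4 fell (median 2.35). CRK7 (AT4G23150) was at 0, 0.0658 and 0.0646 CPM in wild type and 137, 150 and 134 CPM in gp1-2, at least 703-fold higher. CRK30 (AT4G11460) moved the other way, from 11.6, 11.6 and 11.4 CPM to 1.63, 2.43 and 1.93 CPM, falling by 2.52 ± 0.19 on the log2 scale (edgeR adjusted p 3.1e-08). Members of 1 family thus lay on opposite sides with no overlap between genotypes. All 3 wall-associated kinases tested rose, and WAK3 (AT1G21240) was at least 577-fold higher, at 0.0668, 0.132 and 0.129 CPM against 112, 125 and 108 CPM. CRK and WAK genes have close copies, and their counts are uncertain because the handling of shared reads is not given in the sources used here.

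Intracellular receptors moved less but mostly in 1 direction. Of 79 receptors of the TIR-NBS-LRR class tested, 50 rose and 1 fell (median 0.79), and of 44 with a coiled coil or NB-ARC annotation 26 rose and 1 fell (median 0.52). The TIR-NBS-LRR gene that fell, AT4G19530, was at 178, 162 and 128 CPM in wild type and 27.8, 34.3 and 34.3 CPM in gp1-2, with no overlap (-2.28 ± 0.21, edgeR adjusted p 2.4e-07). With volatiles the coiled-coil class had 3 genes called lower under upper-quartile scaling and 2 with a replicate block.

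All 7 genes tested for camalexin, the main antimicrobial indole of Arabidopsis, rose (median 3.00). CYP71A13 (AT2G30770), which makes indole acetonitrile for it, was at 0.267, 0.132 and 0.194 CPM in wild type and 412, 354 and 286 CPM in gp1-2. PAD3 (AT3G26830), the last enzyme, was at a mean of 10.3 ± 0.32 CPM (SD, n = 3) against 311, 286 and 268 CPM. Both were higher in every gp1-2 library, but CYP71A13 shares much sequence with its neighbour CYP71A12, so the split of reads between them is uncertain. It also shares 572 bases with AT2G30766, an iron list gene described below. Aliphatic glucosinolates, the other sulphur-containing defence compounds, showed no common direction: 5 of 16 genes rose and 4 fell (median 0.01), near the 22.6% and 23.3% of all genes. The number that rose was 2 without wild-type replicate 3 or gp1-2 replicate 1, 3 without replicate 2 of either genotype, and 2 under upper-quartile scaling. CYP83A1 (AT4G13770), which converts their aldoximes, fell from 286, 279 and 286 CPM to 192, 169 and 182 CPM (-0.65 ± 0.10, edgeR adjusted p 5.7e-05), while the side-chain enzyme MAM1 (AT5G23010) was not called (-0.24 ± 0.12).

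Glutathione transferases of the tau and phi classes conjugate toxic compounds. Of 38 genes tested, 15 rose and 3 fell (median 0.19), against 22.6% and 23.3% of all genes. The number that fell was 1 without wild-type replicate 3 or without gp1-2 replicate 2. GSTU3 (AT2G29470) was at 0, 0.263 and 0 CPM in wild type and 42.2, 32.7 and 29.6 CPM in gp1-2. GSTF12 (AT5G17220), which acts in anthocyanin transport, fell by 0.49 ± 0.13 on the log2 scale.

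All 16 genes tested of protein folding in the endoplasmic reticulum rose, with a median of 1.45 and no member below 0.78. BIP3 (AT1G09080), the binding-protein gene induced by unfolded proteins, was at 0.401, 0 and 0.129 CPM in wild type and 132, 127 and 113 CPM in gp1-2 (9.41 ± 0.28, edgeR adjusted p 5.0e-13). The constitutive BIP1 (AT5G28540) was at 364, 367 and 339 CPM against 966, 1001 and 1003 CPM, a smaller difference that was still without overlap. BIP1 and BIP2 are near-identical, and their separate counts are uncertain.

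Jasmonate, usually described as the opponent of salicylic acid, did not show lower transcripts as a group. Of 14 genes of jasmonate response and turnover tested, 12 rose and none fell, with a median of 2.74, or 2.41 when the 2 genes at the floor in wild type are set to their bounds. VSP1 (AT5G24780), a storage protein gene induced by jasmonate, was at 1.2, 1.32 and 1.36 CPM in wild type and 16.7, 17.2 and 19.8 CPM in gp1-2. JRG21 (AT3G55970), an oxygenase that inactivates jasmonate, was at 0.0668, 0 and 0.0646 CPM against 45.3, 31.3 and 27.8 CPM, at least 174-fold higher. MYC2 (AT1G32640), the central transcription factor, was at 25.4, 24.4 and 16.7 CPM against 58.9, 57.4 and 44.2 CPM. In each of these genes the genotypes did not overlap. In RefSeq, MYC2 shares 3241 bases with AT1G32630, which was at 0.17 on the log2 scale, and the MYC2 count is uncertain for that reason. The defensin gene PDF1.2 (AT5G44420) stayed below 1 CPM in every gp1-2 library and was at 0 in wild type, at least 3.62-fold higher (edgeR adjusted p 0.015).

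In jasmonate synthesis 8 of 12 genes rose and 1 fell (median 0.92). LOX4 (AT1G72520), a lipoxygenase, was at 23.8, 15.3 and 8.4 CPM in wild type and 222, 252 and 175 CPM in gp1-2. OPR3 (AT2G06050), the reductase of the peroxisome, rose by 1.48 ± 0.14. AOS (AT5G42650), the plastid enzyme that commits the route to jasmonate, was the member that fell, from 197, 190 and 190 CPM to 121, 139 and 130 CPM (-0.57 ± 0.08, edgeR adjusted p 3.2e-05).

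Nuclear genes of photosynthesis were lower in gp1-2 without exception in the lists tested. All 30 listed genes of light harvesting and the photosystems fell, with a median of -1.43 and a range from -2.1 to -0.88. Their summed level was 58950 to 67927 CPM in the wild-type libraries and 21467 to 23898 CPM in the gp1-2 libraries. CAB2 (AT1G29920), a light-harvesting protein of photosystem II, was at 2555, 2461 and 2687 CPM against 674, 576 and 541 CPM. LHCB4.2 (AT3G08940), a minor antenna protein, was at 657, 680 and 722 CPM against 191, 203 and 208 CPM. LHCB2.3 (AT3G27690), an antenna gene of photosystem II that is not in the list, fell further than any member, from 184, 162 and 197 CPM to 18.7, 19.3 and 18 CPM (-3.28 ± 0.10, edgeR adjusted p 1.2e-12). PSBO1 (AT5G66570), a subunit of the water-splitting complex, was at 3870, 3988 and 4491 CPM against 1682, 1591 and 1681 CPM. All 22 genes tested of the Calvin cycle and photorespiration fell as well (median -1.11), the strongest being RBCS2B (AT5G38420), a Rubisco small subunit, at -2.08 ± 0.13. The CAB and RBCS genes are close copies, so the division of reads among them is uncertain.

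Chlorophyll synthesis followed, with all 16 genes tested lower (median -0.93). HEMA1 (AT1G58290), glutamyl-tRNA reductase at the entry of the pathway, was at 198, 184 and 176 CPM in wild type and 140, 135 and 120 CPM in gp1-2. GUN5 (AT5G13630), a subunit of magnesium chelatase, was at 1373, 1210 and 842 CPM against 530, 620 and 546 CPM, with wild-type replicate 3 the lowest of its group. PORB (AT4G27440), a light-dependent reductase, fell by 1.43 ± 0.08 on the log2 scale (edgeR adjusted p 1.5e-09). Of 55 chloroplast-encoded genes tested, 5 were lower and none higher (median 0.01), below the 23.3% and 22.6% of all genes. The number lower was 3 without gp1-2 replicate 3, and in a fit of the 6 libraries alone 5 were called higher. Reads of chloroplast genes made up at most 0.0598% of any library in the series, and the library kit is not given in the sources used here, so these genes were measured at low depth.

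**Figure D3:**
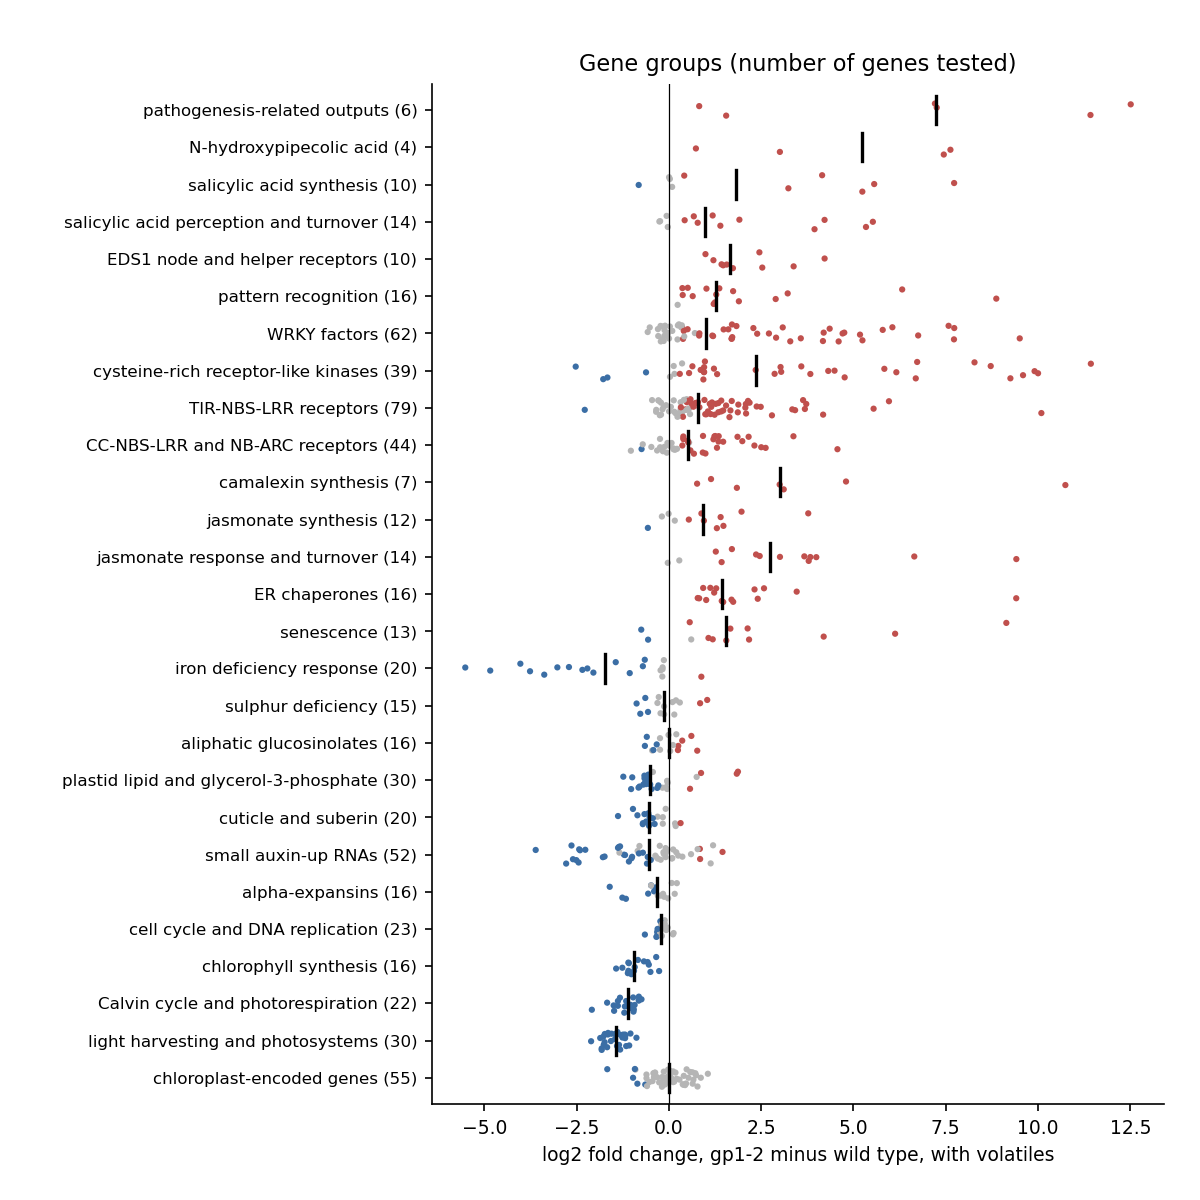
Log2 fold change of gp1-2 against wild type with volatiles (x axis) for each gene tested in the gene groups named on the y axis, with the number of genes tested in parentheses; red was called higher, blue lower and grey not called, and the black bar is the group median. Most called genes of the defence groups lie to the right of 0, and the nuclear photosynthesis groups lie wholly to the left.

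Iron acquisition genes were mostly lower, and iron storage genes showed no common direction. Of 20 iron deficiency genes tested, 14 fell and 1 rose (median -1.74), and with only genes of a mean CPM of at least 5 tested, 5 fell (median -0.23), since most of these genes had low counts. FRO2 (AT1G01580), the ferric reductase of the root surface, was at 14.9, 3.75 and 8.34 CPM in wild type and 0.643, 0.688 and 0.347 CPM in gp1-2. The wild-type values spread widely, yet the lowest lay above every gp1-2 value (-4.02 ± 0.45, edgeR adjusted p 2.7e-06). BHLH100 (AT2G41240), a regulator of the deficiency response, was at 1.80, 1.38 and 5.82 CPM against 0, 0.138 and 0.0386 CPM, at least 20.3-fold lower. FRU (AT2G28160, also FIT), the root transcription factor that activates FRO2, was not called: 10.2, 10.5 and 13.3 CPM against 8.76, 10.5 and 11.6 CPM overlapped.

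AT2G30766, annotated as an uncharacterized protein, was at 15.2, 16.6 and 20.2 CPM in wild type and 3.07, 2.71 and 2.24 CPM in gp1-2. Its RefSeq span overlaps CYP71A13, which moved the other way, and its count is uncertain for that reason. The exception was AT3G13610, an oxygenase that makes iron-binding coumarins, which rose from 87.6, 91.0 and 107 CPM to 182, 170 and 174 CPM (0.88 ± 0.12, edgeR adjusted p 2.0e-05). Of 8 iron storage genes tested, 2 rose and 1 fell (median 0.22), near or below the 22.6% and 23.3% of all genes. A single rise was called without wild-type replicate 2 or gp1-2 replicate 1 or 2, and the fall count was 2 without wild-type replicate 2 or gp1-2 replicate 3. FER1 (AT5G01600), the ferritin gene of iron excess, was at 91.7, 84.6 and 102 CPM against 254, 226 and 225 CPM, and it overlaps the span of AT5G01595, which was at -0.47 on the log2 scale. FER3 (AT3G56090), another ferritin, overlapped between genotypes at 87.4, 75.2 and 95.5 CPM against 61.8, 56.0 and 78.2 CPM. Its log2 fold change of -0.40 ± 0.13 was called (edgeR adjusted p 0.025), but the call was lost without wild-type replicate 1 (-0.38) or 3 (-0.31), without gp1-2 replicate 1 (-0.36) or 2 (-0.30), and after thinning (-0.33). FRO6 (AT5G49730), a ferric reductase of shoots, was among the 8 largest falls of genes with a mean of at least 5 CPM, from 11.3, 10.3 and 9.37 CPM to 1.78, 0.872 and 1.08 CPM.

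**Figure D4:**
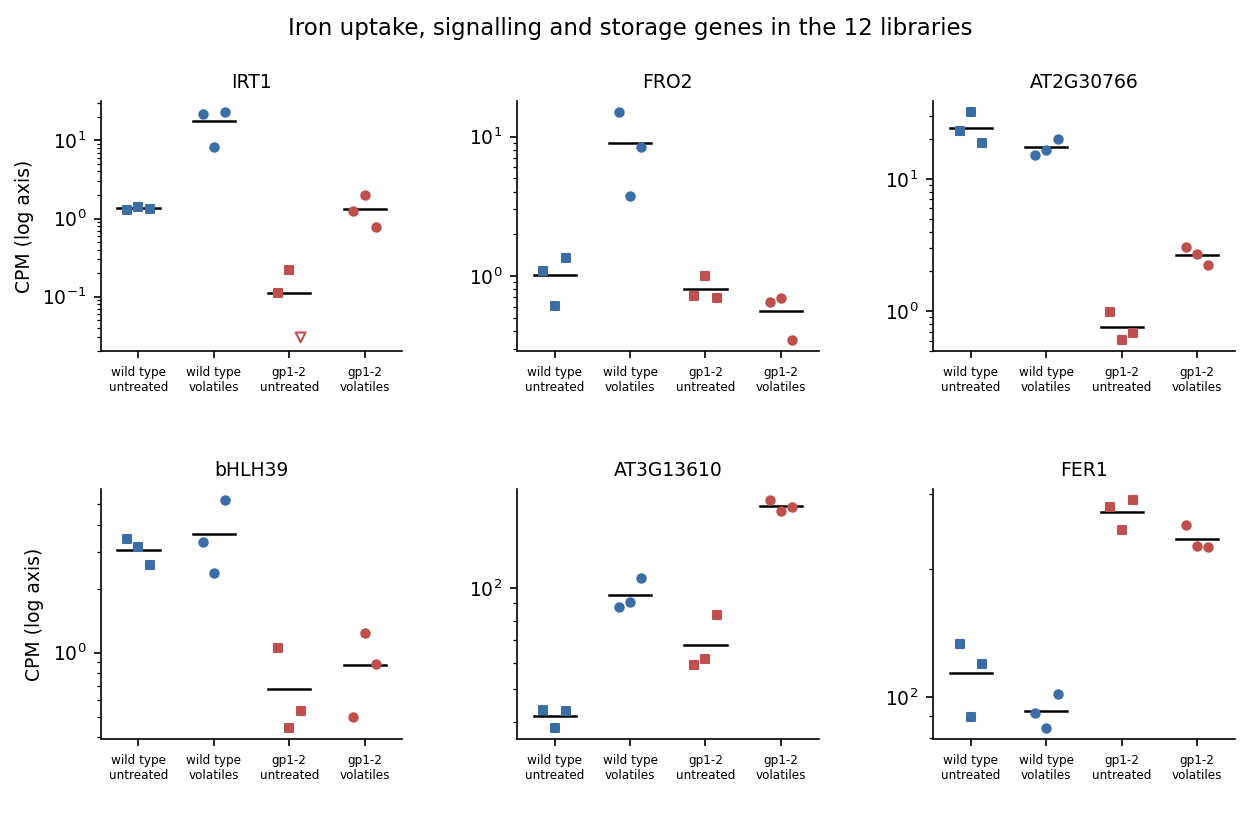
Normalised read count (CPM, log axis) of 6 iron genes in the 12 libraries, by genotype and treatment; squares are untreated and circles volatile-treated libraries, bars are group means of 3, and an open triangle marks a library at 0. FRO2 separates the genotypes with volatiles and overlaps without them, and the ferritin gene FER1 is higher in all gp1-2 libraries.

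Genes of plastid lipid synthesis were mostly lower although SSI2 was higher. Of 30 genes tested, 4 rose and 19 fell (median -0.52). ACP4 (AT4G25050), the leaf acyl carrier protein, went from 267, 241 and 290 CPM to 151, 133 and 168 CPM. ATS1 (AT1G32200), which adds the first acyl chain to glycerol-3-phosphate in the plastid and is also called ACT1, went from 84.9, 80.7 and 84.4 CPM to 43.4, 43.1 and 39.4 CPM. NHO1 (AT1G80460), the glycerol kinase that supplies glycerol-3-phosphate, rose from 80.4, 84.4 and 80.5 CPM to 128, 129 and 108 CPM. The genotypes did not overlap for any of these 3 genes, and the kinase and the acyltransferase moved in opposite directions (0.57 ± 0.09 and -0.99 ± 0.08, edgeR adjusted p 4.4e-05 and 1.0e-07). FAD5 (AT3G15850), the plastid palmitoyl desaturase, was the strongest fall of the group at -1.23 ± 0.12.

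Sulphur deficiency genes, which are known to respond to the sulphur compounds in bacterial air, showed no common direction: 2 of 15 rose and 4 fell (median -0.13), the latter near the 23.3% of all genes. LSU1 (AT3G49580) was at 8.14, 9.21 and 11.2 CPM in wild type and 12.6, 19.9 and 18.8 CPM in gp1-2, whereas LSU2 (AT5G24660) was at 67.7, 67.6 and 76.2 CPM against 33.9, 43.0 and 38.6 CPM. These related genes differed in opposite directions, each without overlap. ATSDI1 (AT5G48850), a repressor of glucosinolate synthesis, was at 28.1, 44.1 and 63.0 CPM in wild type and at 22.0, 41.9 and 59.3 CPM in gp1-2, overlapped and was not called (-0.13 ± 0.29).

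Growth genes were lower in part. Of 52 small auxin-up RNA genes tested, 24 fell and 3 rose (median -0.53), and at a mean CPM of at least 5 the number that fell was 7. Of 20 further genes of auxin synthesis and response, 10 fell and 2 rose (median -0.40). IAA5 (AT1G15580), an auxin-induced repressor, was at 1.40, 1.32 and 1.42 CPM in wild type and 0.445, 0.275 and 0.309 CPM in gp1-2. GH3.3 (AT2G23170), which conjugates auxin to amino acids, went the other way, from 18, 18.4 and 18.9 CPM to 54.4, 64.3 and 55.9 CPM. IAA19 and IAA29 were not called (0.41 ± 0.20 and 0.99 ± 0.40).

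Wall-loosening genes differed by family. Of 16 alpha-expansins tested, 7 fell and none rose (median -0.33), against 23.3% and 22.6% of all genes. EXPA11 (AT1G20190) fell most, at 31.0, 32.7 and 34.7 CPM against 12.5, 9.13 and 10.9 CPM. Of 27 xyloglucan endotransglucosylases, 12 fell and 7 rose (median -0.15, or -0.37 without gp1-2 replicate 3). The share that rose is near the 22.6% of all genes called higher. XTH10 (AT2G14620) rose from 1.94, 1.91 and 2.00 CPM to 105, 86.3 and 89.2 CPM. XTH33 (AT1G10550) fell from 5.94, 7.44 and 12.3 CPM to 1.44, 1.65 and 1.77 CPM. The genotypes were separated for all 3 of these genes, and the endotransglucosylases held strong differences in both directions.

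Of 20 cuticle and suberin genes, 13 fell and 1 rose (median -0.53), against 23.3% and 22.6% of all genes. KCS1 (AT1G01120), an elongase of wax precursors, was at 125, 128 and 122 CPM in wild type and 51.1, 50.1 and 43.4 CPM in gp1-2. The 1 that rose, CYP86A1 (AT5G58860) of root suberin, differed by 0.32 ± 0.10 (edgeR adjusted p 0.012), a call lost without gp1-2 replicate 1 (0.27) or 2 (0.27) and under upper-quartile scaling (0.24), while 2 rose without wild-type replicate 2. Of 23 cell cycle and DNA replication genes, 7 fell and none rose (median -0.20), and the share that fell is near the 23.3% of all genes called lower. The number that fell was 15 under upper-quartile scaling, 4 in a fit of the 6 libraries alone and 4 without wild-type replicate 1. The mitotic cyclin gene CYCB1;1 (AT4G37490) was not called (-0.29 ± 0.12), nor was the replication clamp gene PCNA1 (-0.03 ± 0.14).

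Of 13 senescence genes tested, 10 rose and 2 fell (median 1.56). SAG13 (AT2G29350), a dehydrogenase gene of early leaf senescence, was at 0.401, 0.395 and 0.194 CPM in wild type and 194, 176 and 199 CPM in gp1-2. The number that fell was 0 without wild-type replicate 2 or gp1-2 replicate 3, and 1 without wild-type replicate 3 or gp1-2 replicate 1 or 2. Of 11 clock genes peaking in the morning or evening, 3 rose and 1 fell (median 0.13), shares near or below the 22.6% and 23.3% of all genes, and 3 fell without wild-type replicate 3. PRR9 (AT2G46790), a morning repressor of the clock at 0.601, 0.395 and 0.194 CPM against 1.78, 1.56 and 1.2 CPM, was the strongest rise at 1.91 ± 0.46 (edgeR adjusted p 0.0029).

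Marker genes of organs and cell types were read beside these groups, because whole seedlings mix them. Over all genes tested, 22.6% were called higher and 23.3% lower. Of the root markers, 1 of 6 for root hairs was called, none of 6 for endodermis and stele, and none of 6 tested for root cap and meristem, of which 1 was called higher without wild-type replicate 3. The called one, SHV2, was at -0.37 ± 0.13 and lost its call in 4 of the 6 fits without 1 volatile-treated library, where it ran from -0.38 to -0.30. Summed, the root hair markers were at 95.2 to 118.5 CPM in wild type and 96.8 to 116.8 CPM in gp1-2, and those of endodermis and stele at 194.2 to 222.1 and 185.6 to 200.5 CPM. These sums of root markers overlapped between genotypes. FRO2, IRT1 and the regulator BHLH100 did not overlap, but IRT1 and BHLH100 stood among genes chosen for large falls. The summed iron deficiency genes overlapped, at 1518 to 1807 CPM in wild type and 1417 to 1577 CPM in gp1-2 with volatiles. The part of root amount in the iron values was not tested. Of 5 guard cell markers 3 were lower, with overlapping sums of 1303 to 1450 and 1309 to 1457 CPM, most of it from TGG1. Of 3 phloem markers 2 were lower, with sums of 121.7 to 141.5 and 102.0 to 110.9 CPM, and 1 was lower without replicate 2 or 3 of wild type or 1 or 3 of gp1-2. None of 4 trichome markers was called (15.7 to 21.0 and 14.9 to 18.2 CPM). The root cap and meristem sums were 11.8 to 12.6 and 12.1 to 13.3 CPM. Of the shoot meristem markers only STM could be tested, and it was not called (-0.24). All 3 mesophyll markers fell, from sums of 25613 to 29240 CPM to 11001 to 12571 CPM, but they are themselves photosynthesis genes, and the part of mesophyll amount in the photosynthesis values was not tested.

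The largest differences were of genes at or near 0 in wild type. With volatiles, 71 genes had at most 3 counts in every wild-type library and a mean of at least 5 CPM in gp1-2. No gene showed the reverse, for which the limit was stricter because the gp1-2 libraries were deeper. In the libraries with volatiles, 3 counts were at most 0.2 CPM in wild type and at most 0.148 CPM in gp1-2. Of the 71, 52 were also at that floor in untreated wild type, and 47 had a mean of at least 5 CPM in untreated gp1-2. AIG1 (AT1G33960), a GTP-binding protein gene induced by avirulent bacteria, was at 0.0668, 0.197 and 0.129 CPM in wild type and 495, 509 and 364 CPM in gp1-2, at least 2280-fold higher. TPS04 (AT1G61120), a terpene synthase for a volatile homoterpene, was at 0.0668, 0 and 0 CPM against 99.6, 93.2 and 74.1 CPM, at least 445-fold higher. CYP76C5 (AT1G33730), a cytochrome P450, was at 0 in wild type and at 25.5, 26.5 and 26.0 CPM in gp1-2, at least 130-fold higher. All 3 were silent or nearly so in wild type and steady among the gp1-2 replicates. AIG1 has near-identical neighbours, and its count is uncertain to that extent. The other genes among the 8 largest fitted rises at a mean of at least 5 CPM were PR1, described above, AT5G24200, PCR1, AT1G33950 and AT2G04495. AT5G24200, annotated as a hydrolase, was at least 1083-fold higher, and PCR1 (AT1G14880), a plant cadmium resistance protein, at least 2762-fold, at 0, 0.197 and 0.129 CPM against 533, 506 and 618 CPM. AT1G33950, of the AIG1 family, and AT2G04495, uncharacterized, were at 0 in every wild-type library and at 31.3 to 44.0 CPM and 20.4 to 26.8 CPM in gp1-2.

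The 8 largest falls at that level were smaller in size, and 3 of them, LHCB2.3, FRO6 and IRT1, belong to photosynthesis or iron. IRT1 (AT4G19690), the iron transporter of the root surface, was at 22.0, 8.29 and 23.1 CPM in wild type and 1.24, 1.97 and 0.772 CPM in gp1-2 (-3.76 ± 0.38, edgeR adjusted p 7.6e-07). MIR167d (AT1G31173), the gene of a microRNA, went from 17.1, 17.3 and 11.4 CPM to 1.34, 1.24 and 1.00 CPM. AT3G19850, of the NPH3 family, went from 28.5, 31.6 and 30.4 CPM to 2.18, 2.29 and 2.55 CPM, and AT4G25780, a CAP family protein, from 10.7, 9.21 and 8.02 CPM to 0.940, 0.734 and 1.08 CPM. No library of one genotype reached the other for any of these genes, which was a condition of their choice. The remaining falls were COR413IM1 (AT1G29395), a cold-regulated plastid membrane protein, from 54.2, 67.3 and 76.0 CPM to 7.08, 8.21 and 10.6 CPM, and FLA13 (AT5G44130), an arabinogalactan protein, from 161, 177 and 201 CPM to 20.5, 24.4 and 29.5 CPM.

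The same genotype comparison without volatiles called 7723 genes (37.2%). Whether the difference itself depended on the volatiles was tested as the interaction of genotype and treatment, which was called for 580 genes (2.80%). Of these, 541 were also called with volatiles. In 407 of them the difference had the same sign in both conditions and was larger with volatiles, in 39 it was smaller with volatiles, and in 95 the sign was opposite. The interaction count was 1038 with the replicate number as a block and 342 when replicate 2 of untreated wild type was left out. Leaving out untreated gp1-2 gave 329 (replicate 1) and 346 (replicate 2), and leaving out treated gp1-2 gave 354 (replicate 1) and 343 (replicate 2). It is therefore less firm than the count for genotype.

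Among the groups, the interaction was called in 6 of 14 jasmonate response genes, all with a larger rise with volatiles, against 1.48% positive among all genes. The median log2 fold change of this group was 2.74 with and 0.91 without volatiles, and the number called was 5 to 7 under each alternative that gave an interaction. YLS9 (AT2G35980), a defence gene also called NHL10, had one of the largest positive interactions. It was at 0.667, 0.987 and 0.129 CPM in wild type with volatiles and 2.1, 0.805 and 2.39 CPM without, and at 159, 139 and 113 CPM in gp1-2 with volatiles and 29.0, 31.6 and 43.1 CPM without. The interaction was 3.5 on the log2 scale (edgeR adjusted p 0.0039). Of 62 WRKY genes 9 had a positive interaction and 1 a negative one. The 9 became 5 without untreated wild-type replicate 2, treated wild-type replicate 2 or 3, or replicate 1 or 2 of either gp1-2 group.

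In light harvesting and the photosystems, the interaction was negative for 13 of 30 genes, against 1.32% of all genes, with medians of -1.43 with and -0.95 without volatiles. That number was 6 to 8 without untreated wild-type replicate 2, treated wild-type replicate 3, any untreated gp1-2 replicate, or treated gp1-2 replicate 1 or 2, and 21 without untreated wild-type replicate 3. The sign of the group's difference was the same in both conditions for all 30 genes. In the Calvin cycle and photorespiration, 7 of 22 genes tested had a negative interaction and none a positive one.

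Some genes crossed over. HEMA1 was lower in gp1-2 with volatiles (-0.50 ± 0.09) and higher without them (0.58), an interaction of -1.08 (edgeR adjusted p 0.00037). AT2G04050, a transporter of the MATE family with close copies, was at 20.2, 15.6 and 20.9 CPM in wild type with volatiles and 1.08, 1.01 and 1.34 CPM without. In gp1-2 it was at 4.45, 3.44 and 3.51 CPM with volatiles and 4.08, 5.31 and 4.29 CPM without. Wild type was thus the higher genotype with volatiles and the lower one without (interaction -4.33, edgeR adjusted p 1.8e-06). The gp1-2 values overlapped between the conditions and the wild-type values did not. NAC044 (AT3G01600), a NAC transcription factor gene of the DNA damage response, also had opposite signs in the 2 conditions: 9.54, 11 and 16.4 CPM in wild type against 8.51, 8.12 and 7.99 CPM in gp1-2 with volatiles, and 1.01, 0.939 and 1.24 against 7.00, 5.03 and 6.14 CPM without. Its gp1-2 values, unlike those of AT2G04050, did not overlap between the conditions. Its interaction was -3.11 (edgeR adjusted p 0.00024), while its difference with volatiles (-0.58 ± 0.17) was no longer called without treated wild-type replicate 3 (-0.32).

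**Figure D5:**
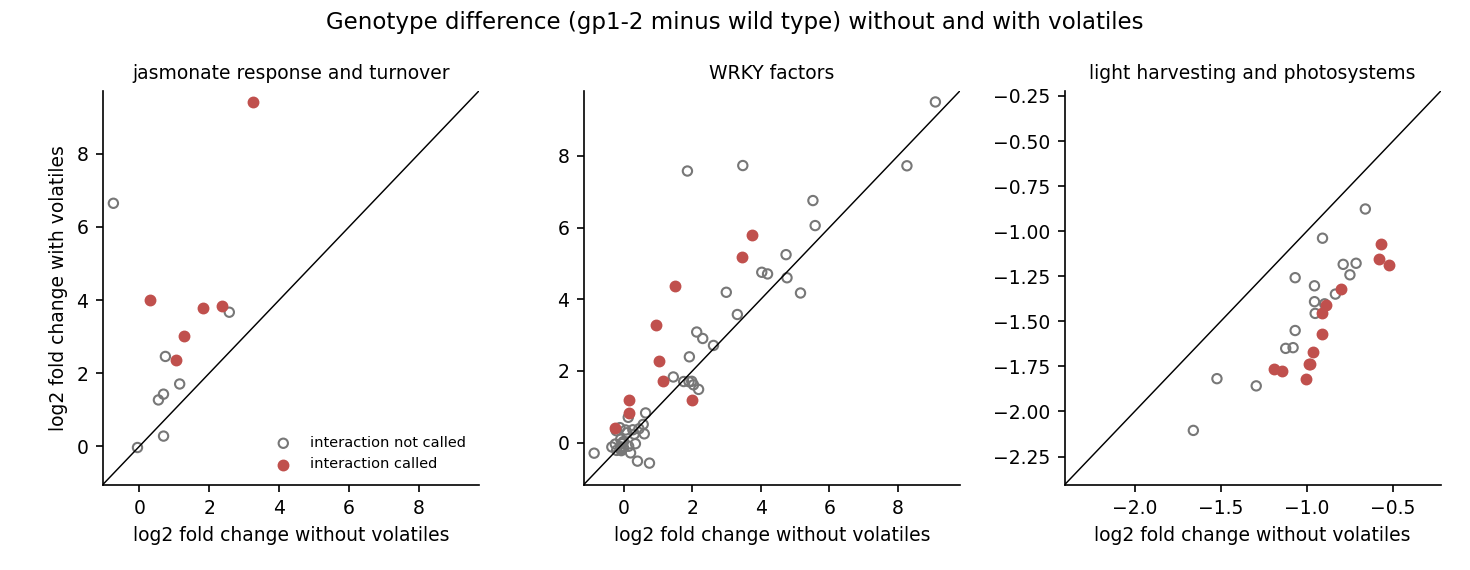
Log2 fold change of gp1-2 against wild type with volatiles (y axis) against that without volatiles (x axis) for the genes tested of 3 groups; filled points had a called interaction and the line marks equal values. The jasmonate response genes with a called interaction lie above the line, and the photosystem genes with one lie below it.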

How the data were processed

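RNA of whole seedlings was sequenced in 12 libraries (4 groups of 3), mapped to groups by title. The authors deposited 1 table of raw read counts per gene. Per the submitters' processing notes, reads went through Trimmomatic 0.36, HISAT2 2.1.0 and HTSeq 0.9.1 with the build TAIR10; the annotation, strand setting and handling of shared reads are not given in the sources used here. Counts of near-identical, overlapping or antisense genes are uncertain.

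Genes were kept with filterByExpr, scaled by TMM and tested with the quasi-likelihood F test of edgeR 4.0.16 (limma 3.58.1, R 4.3.3), with 1 coefficient per group over all 12 libraries and Benjamini-Hochberg adjustment over the 20736 genes tested. Calls needed an adjusted p under 0.05. The standard error is the log2 fold change divided by the square root of F. CPM uses TMM-scaled totals. A group with at most 3 counts in every library was treated as at the floor, and its fold is a bound from 3 counts per library, covering counting error only. The common biological coefficient of variation was 0.109. In simulated counts of 20224 genes tested for genotype with volatiles, 84.5% of 200 genes changed by 1 on the log2 scale were called, with 1.74% of calls false. Those 200 changes were evenly up and down and all other genes were unchanged. The rates therefore do not carry over to the data, where 45.9% of genes were called. Chi-square per degree of freedom between replicates of a group was 2.58 to 15.3, so all libraries counted as separate.

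Symbols and promoter sequences came from RefSeq (TAIR10.1, 32835 identifiers matched). Members and gene lists were chosen with earlier results of these data known. Genes named were chosen among the 8 largest rises and falls at a mean of at least 5 CPM without overlap, fixed anchor genes, the strongest called member of each list in each direction, and the 4 largest interactions of each sign, plus those said to be chosen otherwise and members named to complete a family; some strongest list members stand only in their list's counts. Alternatives were other scalings and filters, DESeq2 1.42.0, limma-voom, a replicate block, thinning and leaving out each library; leaving replicate 3 out of every group was added after seeing the data.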

Additional observations from a re-analysis of the deposited data

Results flagged for a closer look

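For 26 of the genes named, the difference between genotypes with volatiles differed from that without them, by the edgeR interaction test at an adjusted p under 0.05. The 4 largest interactions of each sign were named for that reason. The number 26 is therefore partly fixed by the choice and cannot be set against the 2.80% of all genes. Values here are that interaction on the log2 scale, positive where gp1-2 minus wild type was larger with volatiles. Among defence and jasmonate genes it was 1.1 for SARD1, 1.99 for PR5, 1.97 for VSP1, 2.36 for LOX4 and 3.5 for YLS9. It was 1.6 for XTH10, an endotransglucosylase gene, and negative for NAC044 (-3.11) and the MATE transporter AT2G04050 (-4.33). AT5G24200 (3.5), JRG21 (6.17), AT1G24147 (3.67), AT3G28510 (-5.28) and the ion channel gene CNGC11 (-3.18) each had a group at or near the floor, so the size of their interaction depends on the prior count and is no measured value.

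Among photosynthesis genes it was -0.71 for LHCB2.3, -0.63 for LHCB4.2, -0.52 for PSBO1, -0.63 for RCA, -0.69 for CA1 and -1.08 for HEMA1. Among iron genes it was -1.57 for FRO6, -3.73 for FRO2 and 2.29 for AT2G30766. The rest were SSI2 (-0.60), KCS6 (-0.53), FLA13 (-1.40) and AT3G19850 (-1.81), a gene of the NPH3 family. For 14 of the 26 the call held in every alternative run. For the other 12 it was lost in at least 1: PSBO1, SSI2, FRO6, FRO2, XTH10, AT5G24200, KCS6, JRG21, CA1, SARD1, RCA and FLA13.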

How the results depend on the processing

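The count of genes called with volatiles (9525) was 8304 to 9053 in the fits without 1 library and 8328 to 10273 under the other settings at the same threshold. Requiring an absolute log2 fold change of at least 1 left 2787 genes (1972 higher, 815 lower). The interaction count (580) was 329 to 615 in the fits without 1 library, 941 with DESeq2, 1038 with a replicate block and 831 without replicate 3 of every group. The cause was not tested. Deviations of same-numbered wild-type and gp1-2 libraries correlated at 0.0347, 0.152 and 0.253 with volatiles. There wild-type replicate 1 correlated best with gp1-2 replicate 2 (0.17). Without volatiles same-numbered libraries correlated at 0.218, 0.113 and 0.17, each library best with its own number. Over all pairs of groups the same-numbered values ran from -0.0317 to 0.253. With 3 libraries per group, these correlations cannot decide whether the numbers pair the libraries. The labels do not say what a number shares. With the replicate block 10273 genes were called with and 8542 without volatiles. Of 119 genes named, 108 kept their side of the threshold in every fit. None changed direction where it was called in the main fit or the alternative. Changes of sign without a call in either were not counted. Counts of 57 of 82 list results stayed within 1.5 times. Depth limits genes below about 1 CPM, such as PDF1.2 and WRKY66.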
